A study of Mus musculus with 34 samples.

Results

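Foxp3 binding was compared between regulatory T (Treg) cells that lack BATF and wild-type Treg cells, at all 6396 peaks of the deposited Foxp3 peak table. The samples were chosen by their columns in that table, and they make up 4 of the 34 samples of the series: 2 libraries of Batf knockout Treg cells (genotype Foxp3-IRES-hCD2.Batf-/-) and 2 of wild-type Treg cells (genotype Foxp3-IRES-hCD2). Both groups were CD4+hCD2+ cells of C57BL6/J mice, sorted from lymph nodes and spleen. The Foxp3-IRES-hCD2 reporter, shared by both genotypes, puts human CD2 on the surface of cells that express Foxp3. The labels give no age and do not say whether the libraries of a group came from separate mice or from pools, so p-values measure only the spread between these libraries.

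The same Foxp3 table holds 2 libraries each of effector Treg cells (eTreg, CD4+hCD2+CCR7loCD62Llo) and central Treg cells (cTreg, CD4+hCD2+CCR7hiCD62LhiCD44lo), both of genotype Foxp3-IRES-hCD2 and strain C57BL6/J. Of the 24 immunoprecipitations of the series, these 8 are of Foxp3, and the other 10 samples are input DNA. BATF was precipitated from Treg (CD4+hCD2+) and conventional T cells (Tconv, CD4+hCD2-) of genotype Foxp3-IRES-hCD2 in 2 libraries each. It was also precipitated from CD4+hCD2+GFP- Treg cells of genotype Foxp3R397W-IRES-hCD2/Foxp3-IRES-GFP, which carry the Foxp3 mutation R397W, and from their controls of genotype Foxp3WT-IRES-hCD2/Foxp3-IRES-GFP, again in 2 libraries each. IRF4 was precipitated from Treg and Tconv cells of genotype Foxp3-IRES-hCD2 in 4 libraries each. The Foxp3 antibody was made in house, and the label of the knockout names no restriction to a cell type.

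Foxp3 is a forkhead transcription factor that defines the Treg lineage, and much of its binding lies at enhancers that other factors also occupy. BATF is a basic leucine zipper protein of the AP-1 family. It has no activation domain of its own, pairs with JUN proteins, and binds composite DNA elements together with IRF4. In T cells both factors act downstream of the antigen receptor, and both are known to be required for effector Treg cells, the antigen-experienced Treg cells that populate non-lymphoid tissues.

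The promoters of 4 genes are shown first because the results below turn on where in the genome Foxp3 binding was lost: Usp31 and Rcc1l carried strong Foxp3 peaks at their start sites that passed no test, Tigit carried a strong effector Treg peak at its start site, and Lamp1 was the promoter with a peak higher in the knockout. They were picked after their values were seen. The sequences are the 250 bases before the start site, from RefSeq on GRCm38.p6, 5′ to 3′ on the gene's strand. Capitals mark matches, on either strand, to TGANTCA (the AP-1 site), TGTTTAC (a forkhead site, GTAAACA on the other strand) or GGAAGT (an ETS site, ACTTCC on the other strand).
Usp31 promoter, chr7:121707443-121707692 (minus strand): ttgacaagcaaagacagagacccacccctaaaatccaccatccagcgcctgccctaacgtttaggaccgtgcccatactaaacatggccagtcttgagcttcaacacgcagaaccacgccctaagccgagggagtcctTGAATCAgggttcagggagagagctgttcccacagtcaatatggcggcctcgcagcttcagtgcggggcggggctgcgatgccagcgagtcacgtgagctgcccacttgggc
Rcc1l promoter, chr5:134176768-134177017 (minus strand): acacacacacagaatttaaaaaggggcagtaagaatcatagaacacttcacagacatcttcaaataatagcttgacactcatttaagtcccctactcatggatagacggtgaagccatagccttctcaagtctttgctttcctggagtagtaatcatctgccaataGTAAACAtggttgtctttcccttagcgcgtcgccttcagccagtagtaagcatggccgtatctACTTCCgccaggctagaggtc
Tigit promoter, chr16:43664185-43664434 (minus strand): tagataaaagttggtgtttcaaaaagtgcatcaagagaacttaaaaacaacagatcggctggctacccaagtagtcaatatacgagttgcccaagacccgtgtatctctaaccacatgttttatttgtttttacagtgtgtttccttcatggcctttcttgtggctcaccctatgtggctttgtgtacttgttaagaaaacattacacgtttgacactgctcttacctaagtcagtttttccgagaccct
Lamp1 promoter, chr8:13158911-13159160 (plus strand): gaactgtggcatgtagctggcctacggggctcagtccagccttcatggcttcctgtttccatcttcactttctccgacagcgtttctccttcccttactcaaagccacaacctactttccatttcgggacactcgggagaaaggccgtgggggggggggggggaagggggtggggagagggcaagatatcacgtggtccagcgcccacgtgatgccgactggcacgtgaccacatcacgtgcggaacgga

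Windows of 300 bases around all 21237 distinct start sites (250 before and 50 after) were searched for these letters on both strands. TGANTCA stood in 5.61% of the 553 windows under a Foxp3 peak and in 6.99% of all windows. TGTTTAC stood in 8.14% and 3.00%, and GGAAGT in 37.8% and 24.8%. The longer AP-1 and IRF composite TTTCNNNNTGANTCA, which contains TGANTCA, stood in 0 of the 553 and in 18 of all windows. These are matches of letters in one stretch of sequence, and sequences of the peaks away from promoters were not analysed here.

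Values are normalised reads per peak as deposited, and differences are on log2 of value plus 1, knockout minus wild type, from a limma fit of all 8 Foxp3 libraries. Reads in peaks numbered 263541 and 198741 in the knockout libraries and 259559 and 316698 in the wild-type libraries, and total depth is unknown. The values worth 3 reads were 3.05 and 3.86 in the knockout and 3.03 and 2.51 in the wild-type libraries. Across the 6396 peaks, the log2 values of the 2 knockout libraries correlated at 0.845 and those of the 2 wild-type libraries at 0.897, while pairs across the 2 groups lay between 0.749 and 0.822. Knockout library 2 stood nearer to the central Treg libraries (0.543 and 0.616) than knockout library 1 did (0.416 and 0.509). Batf itself had 0 assigned Foxp3 peaks, and the knockout is therefore not checked here. Of marker genes of other cells, those of B cells and of myeloid cells had 0 Foxp3 peaks. Those of CD8 and NK cells had 2, both near Klrb1c, with summed values of 158 and 134 in the knockout and 109 and 142 in the wild-type libraries. Cells without Foxp3 would give no Foxp3 peaks at their genes, so these values do not check the purity of the sorted cells.

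Without BATF, Foxp3 was called lower at a small set of sites, and the called losses were deep. With 2 libraries a group, shallow losses are often missed: in simulated data 38% of 2-fold and 94.8% of 4-fold changes were recovered. The number and depth of called losses thus depend in part on what can be called. Of the 6396 peaks, 285 differed (4.46%), of which 250 were lower in knockout Treg cells (3.91% of all) and 35 higher (0.547%), at an adjusted p under 0.05 (limma, two-sided, Benjamini-Hochberg over all peaks), with medians of -1.89 and 1.35 on the log2 scale. At an unadjusted p under 0.05 there were 667 lower and 436 higher peaks. The median over all peaks was 0.05. At the 250 lower peaks the median value was 12.2 and 9.01 in the knockout libraries, against 43.0 and 44.3 in the wild-type libraries. Both knockout libraries thus stood at similar low levels and both wild-type libraries at similar higher ones. The 250 were picked by a test of these same libraries, so this likeness within groups follows in part from the choice. The median loss was 3.70-fold on the scale of value plus 1, 247 of the 250 were at least 2-fold lower and 106 at least 4-fold, and the 250 lay near 194 genes, 34 of them with no gene within 100000 bp.

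The sorted cells are a bulk sample, so fewer cells of a kind within it, such as effector Treg cells, and less Foxp3 binding per cell cannot be told apart in any result below. Single libraries weighed on the counts: without knockout library 1 there were 462 lower and 109 higher peaks, without knockout library 2 there were 212 and 27, without wild-type library 1 there were 108 and 27, and without wild-type library 2 there were 89 and 19.

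**Figure D1:**
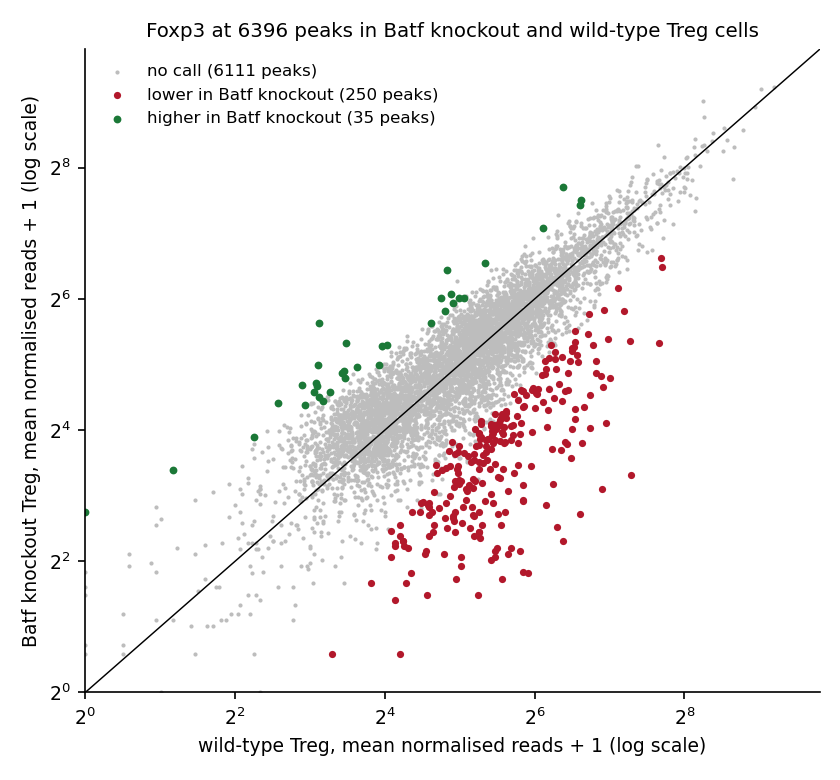
Mean normalised Foxp3 reads plus 1 at each of the 6396 peaks in Batf knockout Treg cells (vertical) and wild-type Treg cells (horizontal), both on log scales and each the mean of 2 libraries; the colours mark the 250 peaks lower and the 35 higher in the knockout. Most peaks lie along the diagonal, and the lower peaks reach much farther from it than the higher ones.

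The 12 called peaks with the most negative difference, among peaks averaging at least 20 in the higher group, fell to knockout means between 1.79 and 8.94, against wild-type means between 37.0 and 156. The peak 61980 bp from Ankrd46 (chr15:36415488-36415888) had 10.2 and 7.72 in the knockout libraries, against 157 and 155 in the wild-type libraries (log2 difference -3.99, SE 0.30, adjusted p = 3.61e-09). A peak 56986 bp from Pkdcc, which encodes a secreted tyrosine kinase (chr17:83158097-83158497), had 4.06 and 3.86 in the knockout, against 82.9 and 81.0 in the wild type (-4.06, SE 0.37, adjusted p = 1.62e-07). A peak within Sik2, a salt-inducible kinase (chr9:50922456-50922856), had 6.10 and 5.15, against 100 and 91.9 in the wild type (-3.88, SE 0.39, adjusted p = 9.42e-07). In each of the 3, the knockout libraries stood close to one another and far below both wild-type libraries, which picking the largest called differences favours.

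A peak within Mfap5, a microfibril protein gene, had 3.05 and 6.43 in the knockout and 77.9 and 77.7 in the wild type (-3.84, SE 0.41, adjusted p = 1.76e-06). Some of the lowest peaks had no reads in 1 knockout library, so that their fold depends on the constant added and is not given. Within Fam185a (chr5:21438443-21438843) the values were 5.08 and 0 in the knockout, against 47.5 and 71.0 in the wild type (adjusted p = 1.09e-05). Within the matrix metalloproteinase gene Mmp10 they were 0 and 5.15, against 51.6 and 60.98 (adjusted p = 2.1e-05), and within the delta-catenin gene Ctnnd2 they were 6.10 and 0, against 38.4 and 45.1 (adjusted p = 2.49e-05). In all, 8 of the 250 lower peaks had a knockout library at 0 and 13 had 3 reads or fewer in both knockout libraries.

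The sites that lost Foxp3 without BATF were largely those that carry more Foxp3 in effector than in central Treg cells. Of the 250 lower peaks, 206 (82.4%) were higher in effector Treg cells and 0 were lower, where 15.0% of all peaks were higher and 10.8% lower in effector Treg cells. At the 250 peaks the medians were 38.0 and 46.4 in the effector libraries, against 10.7 and 8.90 in the central libraries. At these peaks the knockout medians of 12.2 and 9.01 thus stood beside those of central Treg cells, and the wild-type medians of 43.0 and 44.3 beside those of effector Treg cells. Over all peaks the knockout libraries stood nearest to the wild-type libraries, with correlations of 0.749 to 0.822. Their correlations were 0.416 to 0.616 with the central and 0.285 to 0.393 with the effector libraries. The wild-type libraries correlated at 0.413 to 0.551 with the effector and at 0.280 to 0.393 with the central libraries. Taken peak by peak, the knockout mean was nearer the central than the effector mean at 207 of the 250, and the wild-type mean was nearer the effector mean at 224. Over all 6396 peaks these counts were 3388 and 3530. The 250 were picked for low knockout and high wild-type values, so part of this nearness follows from the choice. The knockout comparison and the effector comparison share no libraries, but they come from 1 table with 1 normalisation, and the part that a different share of effector cells in the sorted cells plays was not tested.

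The shift reached beyond the called peaks. At the 958 peaks higher in effector Treg cells the medians were 25.4 and 21.9 in the knockout libraries, against 40.4 and 38.4 in the wild-type libraries, with 38.0 and 40.9 in effector and 11.99 and 11.1 in central Treg cells. The knockout medians lay between the effector and the central ones. Of these 958 peaks, 206 (21.5%) were lower in the knockout and 0 higher. The other 752 had a median difference of -0.41, and 78.5% of them were below 0, against 45.8% of all peaks.

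Peaks lower in effector Treg cells went the other way by a smaller amount. At these 688 peaks the medians were 41.7 and 43.7 in the knockout libraries, against 33.4 and 35.1 in the wild-type libraries, a median difference of 0.30. Of them, 0 were lower and 9 higher in the knockout at an adjusted p under 0.05 (limma), and at an unadjusted p under 0.05 the counts were 2 and 116. At the 4750 peaks with no call between effector and central Treg cells, 44 (0.926%) were lower and 26 higher, with a median of 0.08. Across all 6396 peaks the difference between knockout and wild type and that between effector and central Treg cells had a Pearson r of -0.55 and a Spearman rho of -0.44, given as a description since peaks are not independent.

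**Figure D2:**
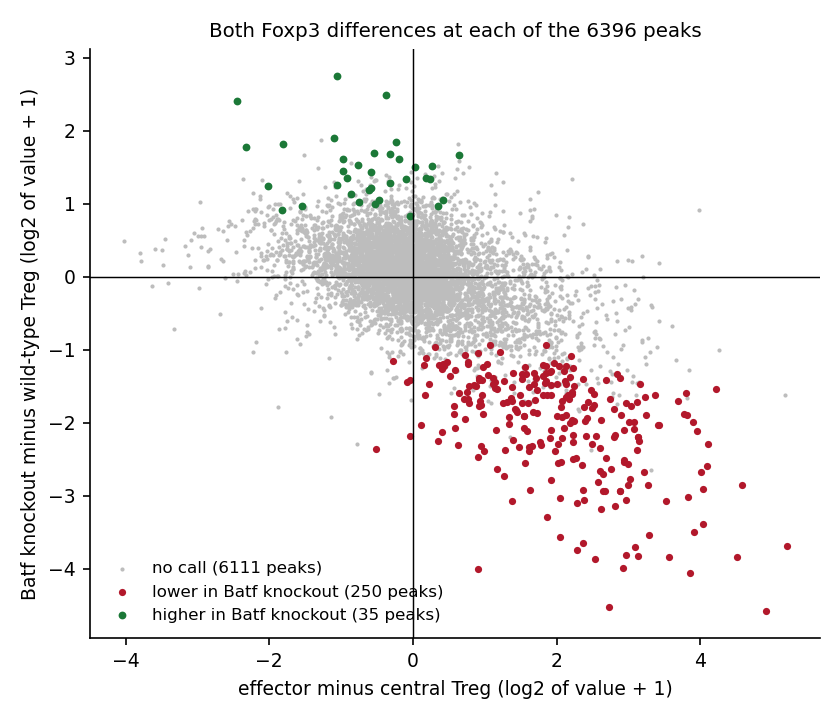
Difference in Foxp3 between Batf knockout and wild-type Treg cells (vertical) against that between effector and central Treg cells (horizontal), both on log2 of value plus 1, at each of the 6396 peaks. The 250 peaks lower in the knockout lie mostly to the right, where Foxp3 is higher in effector Treg cells, and 0 of them are called lower there.

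Many of the lost sites were sites of BATF and IRF4 in wild-type Treg or Tconv cells. Of the 250 lower Foxp3 peaks, 163 (65.2%) overlapped a BATF peak of the table for Treg and Tconv cells, which is what a BATF peak means here unless the table of the R397W experiment is named, against 48.2% of all Foxp3 peaks. For IRF4 the shares were 71.2% (178 peaks) and 39.7%, and for both factors together 61.6% (154 peaks) and 33.5%. The remaining 63 lower peaks (25.2%) that overlapped neither, 11 of which overlap a BATF peak of the R397W experiment's table, had medians of 9.15 and 7.72 in the knockout libraries, against 34.4 and 32.6 in the wild-type libraries, and 46 of them were higher in effector Treg cells.

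Read the other way, the share of Foxp3 peaks that fell was 7.19% on sites of both factors (154 of 2143) and 6.03% on sites of IRF4 without BATF (24 of 398). It was 0.959% on sites of BATF without IRF4 (9 of 938) and 2.16% on sites of neither (63 of 2917). The share on sites of BATF without IRF4 was thus the lowest of the 4. Foxp3 peaks on a BATF peak had median values of 44.3 in the knockout and 44.98 in the wild type, against 19.2 and 17.7 off BATF peaks, so the shares were also taken by level: within the lowest 25% of peaks by mean value, 17.4% of those on a BATF peak fell (27 of 155), against 2.42% of those off one (35 of 1444). In the next 25% the shares were 9.61% (56 of 583) and 3.05% (31 of 1016), and in the third 3.50% (36 of 1030) and 2.64% (15 of 569). Within the highest 25% the shares were 3.35% (44 of 1313) and 2.10% (6 of 286). The mean value was taken over all Foxp3 groups, the knockout included, so a loss itself moves a peak to a lower level. These shares therefore do not separate level from loss.

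At most of the lost sites on a BATF peak, BATF was far higher in Treg than in Tconv cells. At the 163 lower peaks on a BATF peak, median BATF was 131 normalised reads in Treg cells and 18.9 in Tconv cells, while at all 3081 such Foxp3 peaks the medians were 93.5 and 69.1. At 154 of the 163 (94.5%) BATF was at least 2-fold higher in Treg cells, against 26.8% of all 3081. IRF4 behaved alike, with medians of 56.5 in Treg and 21.4 in Tconv cells at the 178 lower peaks on an IRF4 peak, and 25.8 and 24.4 at all 2541.

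The share of Foxp3 peaks that fell was highest where BATF in Treg cells most exceeded that in Tconv cells. It was 0 of 118 where BATF was at least 2-fold lower in Treg than in Tconv cells, 0.712% (7 of 983) where it was lower by less, and 0.173% (2 of 1153) where it was higher by less than 2-fold. Between 2-fold and 4-fold higher it was 7.02% (29 of 413), between 4-fold and 8-fold 24.7% (53 of 215), and from 8-fold 36.2% (72 of 199). For IRF4 it was 4.297% (40 of 931) where IRF4 was higher in Treg cells by less than 2-fold, 22.4% (78 of 348) between 2-fold and 4-fold, 42.7% (38 of 89) between 4-fold and 8-fold, and 38.1% (8 of 21) from 8-fold. The properties can also be crossed. Of Foxp3 peaks higher in effector Treg cells, 41.8% fell where BATF was at least 4-fold higher in Treg cells (117 of 280), 11.4% where BATF was bound with a smaller difference (24 of 211), and 13.9% without a BATF peak (65 of 467). Of peaks not higher in effector Treg cells with a BATF difference of at least 4-fold, 5.97% fell (8 of 134).

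**Figure D3:**
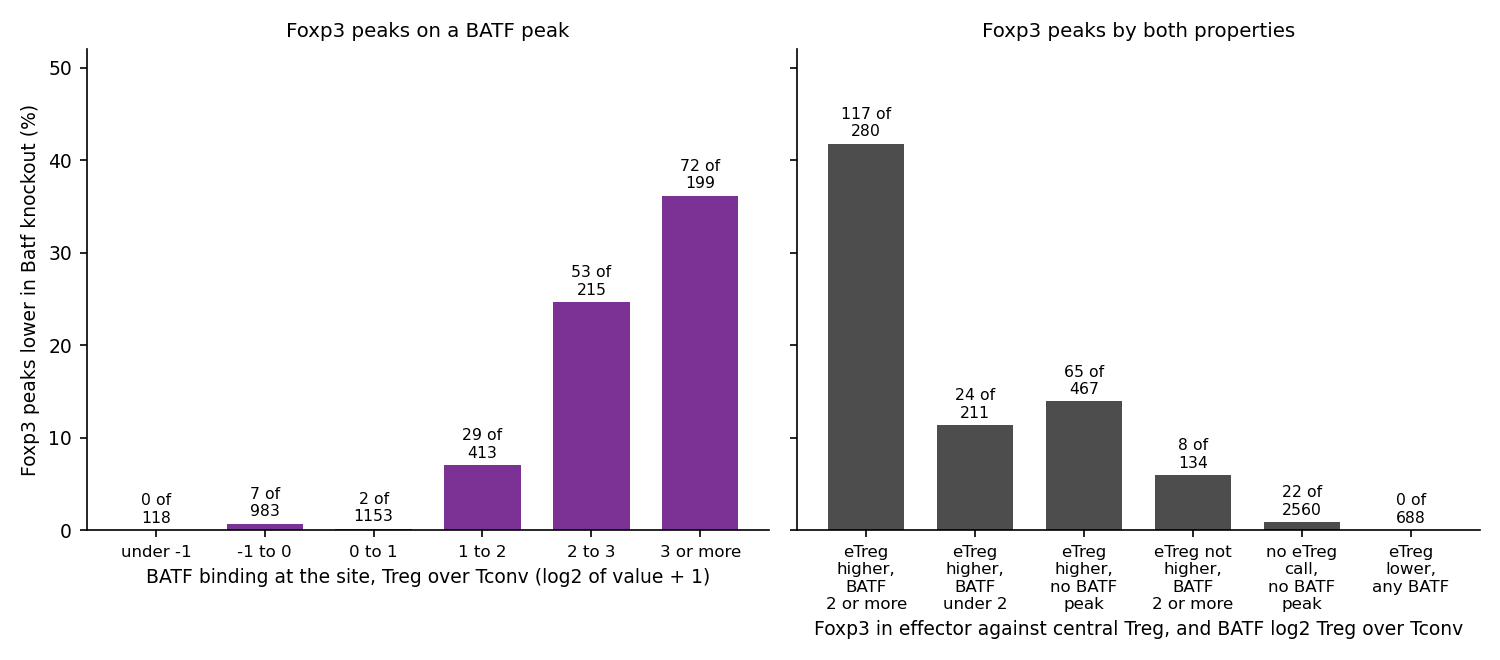
Share of Foxp3 peaks lower in Batf knockout than in wild-type Treg cells, in percent, by the log2 ratio of BATF in Treg over Tconv cells at the site (left) and by that ratio together with the Foxp3 difference between effector and central Treg cells (right), with the number of peaks on each bar. The tallest bar on the right, at 41.8%, holds peaks that were both higher in effector Treg cells and bound by BATF at least 4-fold more in Treg than in Tconv cells.

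At most of the lost sites BATF was lower in Treg cells with the R397W form of Foxp3 than in their controls. At the 171 lower Foxp3 peaks that overlap a peak of the second BATF table, median BATF was 33.2 in R397W and 93.5 in control Treg cells, and at all 2212 such Foxp3 peaks it was 41.6 and 52.2. BATF was at least 2-fold lower in R397W cells at 122 of the 171 (71.3%), against 21.3% of the 2212. Across these 2212 sites the Foxp3 difference of the Batf knockout and the BATF difference of R397W cells had a Pearson r of 0.52 and a Spearman rho of 0.49, as a description.

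Among 17 Treg core genes, 11 had Foxp3 peaks, and 3 of their 51 peaks fell (5.88%, against 3.91% of all peaks) and 0 rose, with a list median of 0.06 against 0.05 over all peaks. Within 20000 bp of the genes, 1 of 36 fell. The 3 lay at 2 genes. Nrp1 encodes neuropilin-1, a surface receptor of thymus-derived Treg cells, and 2 of its 9 peaks fell, both beyond the gene's end and 2366 bp apart. The peak at chr8:128549726-128550126 had 6.10 and 9.01 in the knockout libraries, against 103 and 134 in the wild-type libraries, with 160 and 176 in effector and 22.6 and 18.5 in central Treg cells (-3.81, SE 0.28, adjusted p = 3.61e-09). BATF averaged 418 ± 113 there in Treg cells, against 64.7 ± 0.547 in Tconv cells (SD, n = 2 each), and IRF4 214 ± 29.6, against 80.5 ± 44.6 (SD, n = 4 each). The knockout libraries lay below both central Treg libraries at this site.

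The second Nrp1 peak (chr8:128547360-128547760) had 1.02 and 2.57 in the knockout, which is 1 and 2 reads, against 36.4 and 37.6 in the wild type (adjusted p = 6.04e-06). Within the gene, the peak at chr8:128473817-128474217 had 35.6 and 38.6 in the knockout, against 24.3 and 12.5 in the wild type, with no call (1.04, adjusted p = 0.0898). At Ikzf2, the gene of the Ikaros-family factor Helios, 1 of 10 peaks fell (chr1:69544231-69544631), with 26.4 and 11.6 in the knockout, against 96.1 and 87.7 in the wild type (-2.32, SE 0.31, adjusted p = 2.74e-05). BATF averaged 523 ± 107 there in Treg cells, against 44.7 ± 2.43 in Tconv cells (SD, n = 2 each). The strongest Ikzf2 peak had 168 and 134, against 124 and 133, with no call (0.22, adjusted p = 0.738).

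The other 9 core genes with peaks had no call. The peak within Foxp3 itself (chrX:7583928-7584328) had 82.3 and 117 in the knockout, against 142 and 144 in the wild type, a difference of -0.53 (95% interval -1.10 to 0.03, adjusted p = 0.331). The strongest peak of Il2ra, the interleukin-2 receptor alpha chain, had 175 and 124, against 168 and 151 (-0.12, interval -0.61 to 0.37, adjusted p = 0.866). That of the inhibitory receptor gene Ctla4 had 67.1 and 68.2, against 54.6 and 46.8 (0.41, interval -0.10 to 0.92, adjusted p = 0.425). None of the 3 intervals reaches -1.89, the median difference of the lower peaks, but those peaks were picked by passing the test, which favours large differences. Smaller losses are not excluded at these 3 peaks, and the interval at Foxp3 runs down to -1.10.

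Genes of effector Treg cells had the most lower peaks of the 13 lists. Of 31 such genes 21 had Foxp3 peaks, and 9 of their 64 peaks fell (14.1%, against 3.91% of all peaks) and 1 rose, with a list median of -0.47 and 76.6% of peaks below 0. Within 20000 bp of the genes, 5 of 47 fell. Of the 64, 35 were higher in effector than in central Treg cells. The gene with the most lower peaks was Icos, which encodes a costimulatory receptor that effector Treg cells carry in high amounts. Its 3 lower peaks lay together, 26594, 27367 and 30461 bp beyond the gene's end, all higher in effector Treg cells. None lay on a BATF peak of the Treg and Tconv table, and the first lay on one of the R397W experiment's table.

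The first of them (chr1:61026716-61027116) had 2.03 and 5.15 in the knockout, against 19.2 and 18.4 in the wild type (-2.20, SE 0.52, adjusted p = 0.0116). The second had 10.2 and 3.86, against 21.2 and 35.1 (-1.94, SE 0.44, adjusted p = 0.00913), and the third 11.2 and 11.6, against 34.4 and 25.1 (-1.29, SE 0.38, adjusted p = 0.0483). The knockout libraries were the lower ones at all 3, as at every lower peak, while the other 7 peaks of Icos ranged from -0.86 to 0.68 with no call. These are weak peaks: the first call was lost without wild-type library 1 (adjusted p = 0.105), without library 2 (0.107) and with DESeq2 (0.0785), and the second without knockout library 2 (0.0869), without wild-type library 2 (0.184) and with DESeq2 (0.0644). The third was lost in 11 of 15 alternatives, with an adjusted p of up to 0.293.

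Transcription factor genes of effector Treg cells lost single peaks. At Maf, whose leucine zipper product drives interleukin 10, a peak at 20094 bp (chr8:115726788-115727188) had 6.10 and 9.01 in the knockout, against 28.3 and 37.6 in the wild type, with 49.4 and 50.8 in effector and 2.66 and 2.22 in central Treg cells (-2.00, SE 0.43, adjusted p = 0.00592). The peak within Nfil3, another leucine zipper factor (chr13:52976391-52976791), had 51.8 and 29.6, against 131 and 119 (-1.65, SE 0.33, adjusted p = 0.00289), and BATF averaged 232 ± 0.315 there in Treg cells, against 10.0 ± 12.1 in Tconv cells (SD, n = 2 each). Knockout and wild-type libraries did not overlap at either, which is true of all 250 lower peaks and of 43.1% of all peaks. Maf lost its call without wild-type library 2 (adjusted p = 0.126) and Nfil3 without wild-type library 1 (adjusted p = 0.0691).

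The nuclear receptor gene Rora had 8 peaks with a median of -0.85, all below 0, and 1 was called: it had 22.4 and 16.7 in the knockout, against 57.6 and 56.0 in the wild type (-1.51, adjusted p = 0.0166, lost in 5 alternatives). A peak within Itgb1, the beta-1 integrin chain, fell without a BATF or IRF4 peak under it, with 8.13 and 5.15, against 33.4 and 32.6 (-2.18, SE 0.43, adjusted p = 0.00289, and 0.0533 without wild-type library 2). Named after their values were seen, a peak 2679 bp from Pdcd1, which encodes PD-1, had 23.4 and 23.2, against 54.6 and 56.8 (-1.22, adjusted p = 0.0168, lost in 4 alternatives). A peak within Tnfrsf9, which encodes 4-1BB, had 24.4 and 10.3, against 46.5 and 46.8 (-1.49, adjusted p = 0.0137, lost in 5).

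Other hallmark genes of effector Treg cells had no called peak. The peak at the start of the inhibitory receptor gene Tigit, whose promoter is printed above, had 287 and 167 in the knockout, against 415 and 389 in the wild type, means of 227 ± 84.4 and 402 ± 17.9 (SD, n = 2 each). Both knockout libraries were lower, with a difference of -0.87 (95% interval -1.40 to -0.34, adjusted p = 0.0515). It passed the test in 7 of 15 alternatives, with an adjusted p of 0.0238 under the replicate block and of 0.00313 without knockout library 1. The peak 14000 bp from Il10, the interleukin-10 gene, had 104 and 43.7, against 93.0 and 57.6, so the groups overlapped (-0.12, interval -0.91 to 0.67, adjusted p = 0.923). The stronger of 2 peaks of Il1rl1, the interleukin-33 receptor gene, had 27.4 and 20.6, against 41.5 and 25.9 (-0.45, interval -1.39 to 0.49, adjusted p = 0.684), and the strongest near the chemokine receptor gene Ccr8 had 43.7 and 38.6, against 45.5 and 56.0 (-0.29, interval -0.91 to 0.33, adjusted p = 0.689). The 3 peaks of Ccr8 ranged from -1.04 to -0.016, with 1 at an unadjusted p under 0.05 and a lowest adjusted p of 0.17.

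**Figure D4:**
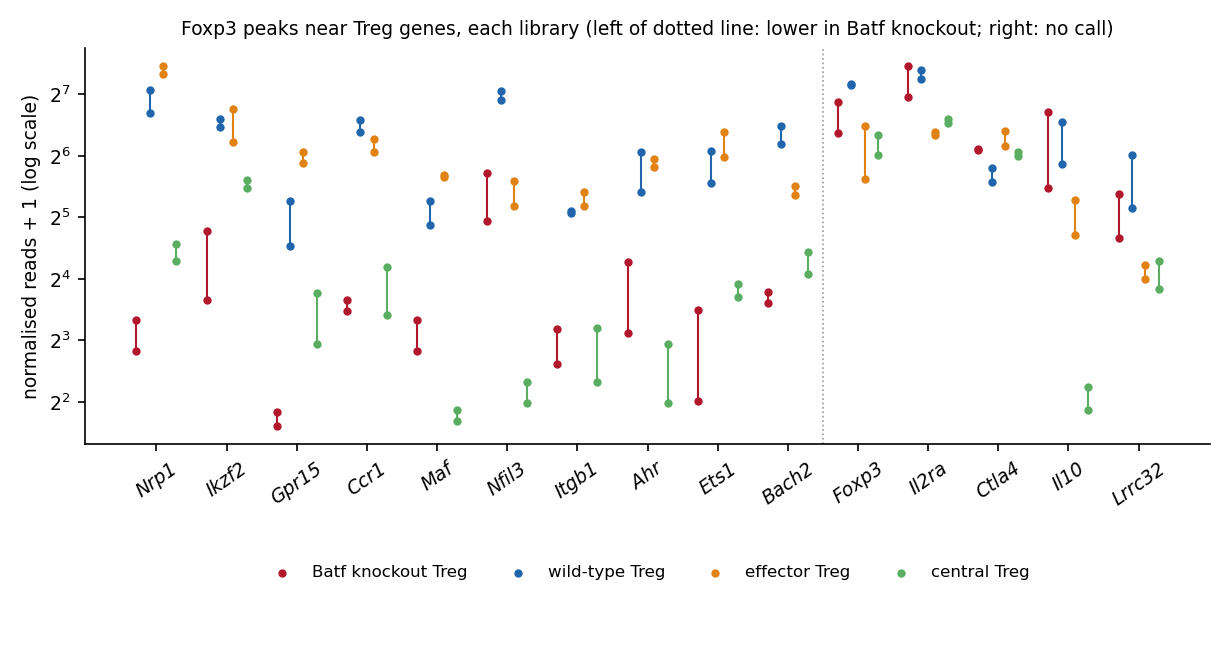
Normalised Foxp3 reads plus 1 (log scale) in each library of Batf knockout, wild-type, effector and central Treg cells at peaks near Treg genes; points are single libraries, joined within a group, and the dotted line parts peaks lower in the knockout (left) from peaks with no call (right). On the left the knockout libraries stand below the wild-type libraries at every peak, as they do at all 250 lower peaks. On the right the knockout and wild-type values overlap at Il2ra, Il10 and Lrrc32 and do not overlap at Foxp3 and Ctla4.

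Genes of central and naive T cells had a share of losses near that of all peaks and a median above it. Of 22 such genes 21 had Foxp3 peaks, and 3 of their 117 peaks fell (2.56%, against 3.91% of all peaks) and 0 rose (limma), with 7 lower and 16 higher at an unadjusted p under 0.05. The list median was 0.26 and 23.9% of the peaks were below 0. Of the 117, 50 had less Foxp3 in effector than in central cells. The 3 that fell were themselves higher in effector Treg cells and lay on peaks of both BATF and IRF4. A peak 2341 bp from Bach2, a leucine zipper repressor of effector genes, had 11.2 and 12.9 in the knockout, against 89.0 and 71.8 in the wild type (-2.64, SE 0.31, adjusted p = 6.04e-06). A peak within Ets1, a founding member of the ETS factors, had 3.05 and 10.3, against 66.7 and 45.9 (-3.06, SE 0.40, adjusted p = 2.47e-05). A peak within the forkhead gene Foxp1 had 55.9 and 19.3, against 81.9 and 101 (-1.44, SE 0.34, adjusted p = 0.0112, lost in 5 alternatives).

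At each of these genes the other peaks had no call. The 9 peaks of Bach2 had a median of 0.10, the 11 of Ets1 a median of 0.12 and the 21 of Foxp1 a median of 0.43. The strongest Bach2 peak had 146 and 135 in the knockout, against 199 and 260 in the wild type (-0.69, adjusted p = 0.12). The naive factor genes Tcf7 and Lef1 had 3 peaks each and the chromatin organiser gene Satb1 had 10, and limma called none of them. Their medians were 0.53, 0.28 and 0.30.

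Homing receptor genes included deep losses. Of 24 chemokine receptor and homing genes 15 had Foxp3 peaks, and 4 of 48 peaks fell (8.33%, against 3.91% of all peaks) and 1 rose (2.08%, against 0.547%), with a median of 0.07. A peak 14580 bp from Gpr15, a receptor that guides T cells to the large intestine (chr16:58701863-58702263), had 2.03 and 2.57 in the knockout, 2 reads in each library, against 22.2 and 37.6 in the wild type, with 58.3 and 65.7 in effector and 6.66 and 12.6 in central Treg cells (adjusted p = 3.74e-05). At Ccr1, a receptor of inflammatory chemokines, a peak 25311 bp away (chr9:123936615-123937015) had 10.2 and 11.6, against 95.05 and 82.7 (-2.92, SE 0.32, adjusted p = 2.34e-06), and BATF averaged 494 ± 147 there in Treg cells, against 39.5 ± 24.6 in Tconv cells (SD, n = 2 each). Both kept their calls in all 15 alternatives.

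On the same stretch of chromosome 9, the peak 21952 bp from Ccr2, another chemokine receptor gene, rose, with 266 and 151 in the knockout, against 90.0 and 74.3 in the wild type (1.28, SE 0.32, adjusted p = 0.0169). The groups did not overlap, which is true of all 35 higher peaks and of 43.1% of all peaks, and the call rests on single libraries. It was lost without knockout library 1, wild-type library 1 or wild-type library 2, with quantile normalisation and with no trend of the spread (adjusted p up to 0.186).

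**Figure D5:**
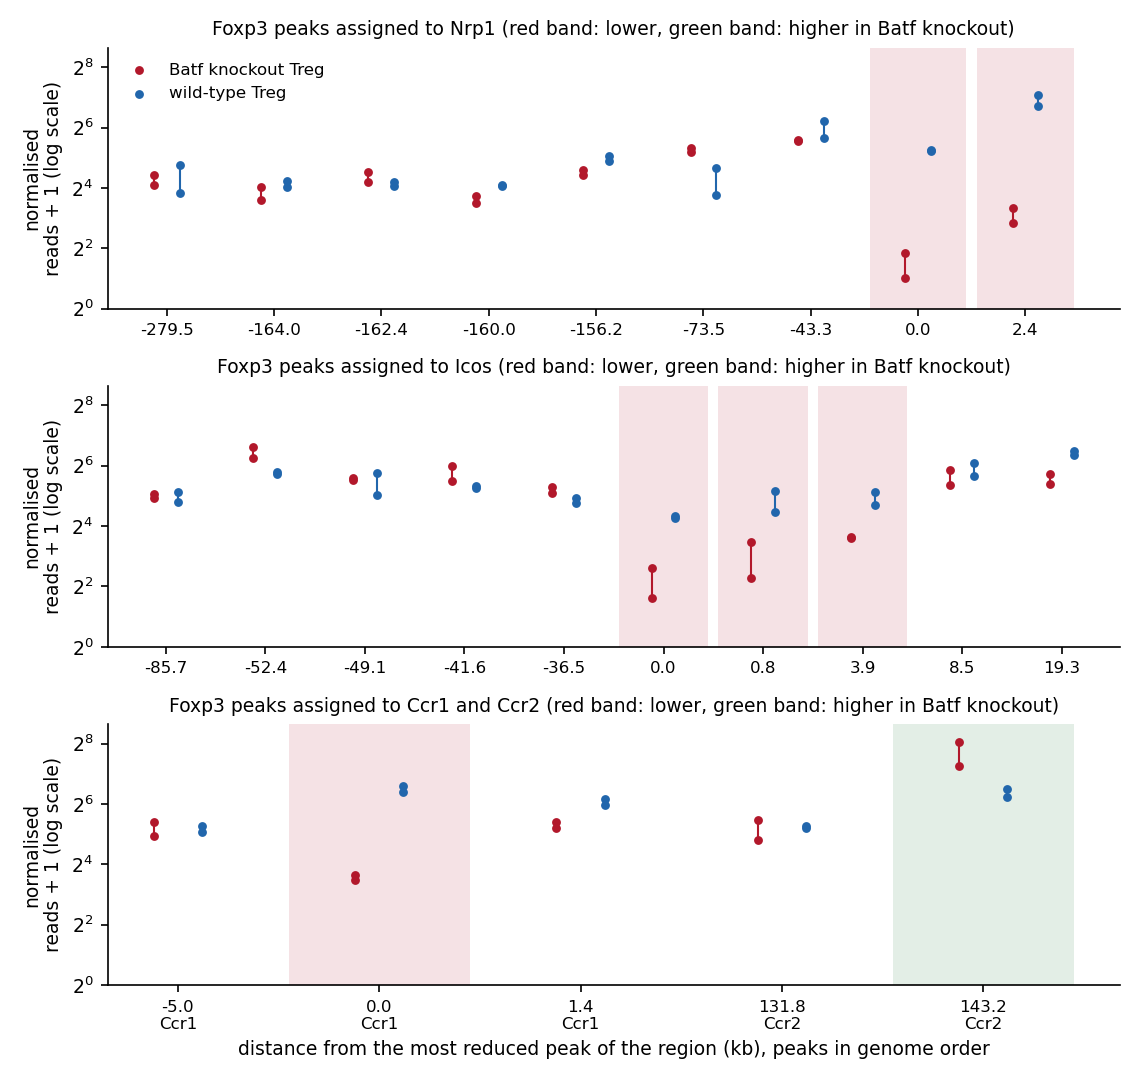
Normalised Foxp3 reads plus 1 (log scale) in each Batf knockout and wild-type library at all Foxp3 peaks assigned to Nrp1, Icos and the chemokine receptor genes Ccr1 and Ccr2, in genome order, with the distance from the most reduced peak of the region in kb under each; bands mark called peaks. Losses fall on 2 neighbouring peaks at Nrp1 and on 3 at Icos, while the other peaks of both genes have no call.

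In the remaining gene groups up to 4 peaks fell, and 3.91% of all peaks did. The AP-1, BATF and IRF list had 2 of 21 peaks lower (9.52%), those of Bach2 and Maf, and 0 higher (median 0.13). T helper lineage genes had 2 of 41 lower (4.88%) and 0 higher (median -0.01). These were Rora and a peak 28042 bp from Ahr, the aryl hydrocarbon receptor, with 18.3 and 7.72 in the knockout, against 41.5 and 66.0 in the wild type (-2.04, SE 0.42, adjusted p = 0.00391, and 0.128 without wild-type library 2). T cell receptor signalling genes had 3 of 84 lower and 0 higher (median 0.07), a share of 3.57%. They lay at Nfkb1, an NF-kappaB subunit, at Ptpn22, a phosphatase that restrains receptor signals, and near Tnfaip3, which encodes the NF-kappaB inhibitor A20. The Nfkb1 peak had 32.5 and 33.5, against 66.7 and 85.2 (-1.17, SE 0.26, adjusted p = 0.00619, and 0.124 without wild-type library 2).

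The Ptpn22 peak had 20.3 and 9.01 in the knockout, against 55.6 and 36.8 in the wild type (-1.66, adjusted p = 0.015, lost in 5 alternatives), and the Tnfaip3 peak 3.05 and 11.6, against 23.3 and 25.1 (-1.82, adjusted p = 0.0248, lost in 7). Foxp3 partner factor genes, several of which are also in the central list, had 4 of 90 lower (4.44%) and 0 higher (median 0.24). Besides Ets1 and Foxp1 these were Ikzf3, the gene of the Ikaros-family factor Aiolos, with 18.3 and 5.15, against 41.5 and 38.4 (-1.91, adjusted p = 0.0104, lost in 4 alternatives), and Hif1a, the hypoxia factor, named after its values were seen, with 20.3 and 16.7, against 42.5 and 53.5 (-1.32, adjusted p = 0.0251, lost in 6). Of 72 peaks of cytokine receptor and STAT pathway genes limma called 0, with 4 lower and 3 higher at an unadjusted p under 0.05, and edgeR called the peak near the decoy receptor gene Il1r2. The 4 housekeeping peaks had a median of 0.07 and no call in limma.

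The 35 peaks that rose were fewer and changed less. At these the medians were 30.5 and 32.2 in the knockout libraries, against 11.1 and 10.9 in the wild-type libraries, with 21.5 and 21.3 in effector and 30.6 and 32.6 in central Treg cells. Their median rise was 2.56-fold on the scale of value plus 1. Of the 35, 0 were higher in effector Treg cells and 9 (25.7%) lower, where 10.8% of all peaks were. Of the 35, 12 lay on a BATF peak (34.3%, against 48.2% of all peaks), and BATF was lower in Treg than in Tconv cells at 8 of those 12, against 1101 of all 3081 Foxp3 peaks on a BATF peak.

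A peak within Mef2a, a MADS-box factor, had 58.9 and 38.6 in the knockout, against 7.08 and 8.35 in the wild type (2.49, SE 0.59, adjusted p = 0.0115). Peaks within Ift80, a ciliary transport gene, and Ubac2, a ubiquitin-associated gene of the endoplasmic reticulum, kept their calls in all 15 alternatives. Ift80 had 30.5 and 30.9, against 6.07 and 9.19 (1.90, SE 0.36, adjusted p = 0.00191). Ubac2 had 30.5 and 47.6, against 11.1 and 9.19 (1.82, SE 0.36, adjusted p = 0.00309), with 11.4 and 15.6 in effector and 59.9 and 40.8 in central Treg cells. The knockout and central Treg libraries were the high ones at Ubac2.

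Other rises lay within Cmss1 (72.2 and 100, against 18.2 and 36.8 in the wild type, adjusted p = 0.00325), the ubiquitin ligase gene Ubr1 (17.3 and 23.2, against 4.04 and 5.85, adjusted p = 0.0142), and the adducin gene Add3 (21.3 and 28.3, against 7.08 and 5.85, adjusted p = 0.0129). Pdcd4, which encodes an inhibitor of translation, had 19.3 and 29.6, against 10.1 and 5.01 (adjusted p = 0.0185). Most of these wild-type values are of few reads. The calls at Mef2a, Cmss1, Ubr1 and Add3 were each lost without wild-type library 1, and that at Pdcd4 without wild-type library 2 (adjusted p up to 0.216).

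The lost peaks lay away from promoters. Of the lower peaks on chromosomes with listed start sites, 0 of 235 touched a promoter window, against 473 of all 6218 such Foxp3 peaks (7.61%). The 0 depends on the setting: 1 lower peak did with quantile normalisation, with edgeR and with a constant of 5. The Tigit start-site peak narrowly missed the call (-0.87, adjusted p = 0.0515 in limma). Within 1000 bp of a start site 2 of 596 peaks fell (0.336%), and beyond 50000 bp 122 of 2301 fell (5.30%). Lower peaks lay a median of 52049 bp from the nearest start site, against 30700 bp for all peaks, and 44.4% of them were in a gene body, against 67.0%. Of the 335 peaks with no gene within 100000 bp, 34 fell (10.1%).

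The Foxp3 peak on the Usp31 promoter printed above, whose gene encodes a ubiquitin-specific protease, had 520 and 648 in the knockout, against 535 and 504 in the wild type (0.16, 95% interval -0.31 to 0.64, adjusted p = 0.786). The peak on the Rcc1l promoter had 304 and 346, against 356 and 256 (0.10, interval -0.39 to 0.60, adjusted p = 0.885). Knockout and wild-type values overlapped at both. The 1 promoter peak that rose was on Lamp1, a lysosomal membrane protein gene, with 17.3 and 33.5, against 4.04 and 10.9 (1.70, SE 0.46, adjusted p = 0.0312), a call lost in 6 alternatives.

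A part of the losses kept its call in each of 15 alternatives to the main fit. The stricter limit of an adjusted p under 0.01 in limma, which left 138 lower peaks, is not among the 15. Of the 250 lower peaks, 67 were called in all 15 alternatives, and all 250 had a negative difference in every alternative in which they were fitted. Of the 67, 61 (91.0%) were higher in effector Treg cells, against 82.4% of the 250 and 15.0% of all peaks. On a BATF peak lay 60 (89.6%), against 65.2% of the 250 and 48.2% of all peaks. Foxp3 peaks on a BATF peak had higher values than those off one, and the part that peak strength plays in these shares was not tested.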

How the data were processed

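Foxp3 was measured in 8 chromatin immunoprecipitation libraries, of which 4 enter the knockout comparison. The authors deposited normalised signal per peak on build mm10, 1 peak list per table, most peaks 400 bp long. The submitters' processing notes name DiffBind 3.12.0, edgeR 3.38.4, MACS2 2.2.7.1 and Bowtie2 2.4.1, without their roles. Within 0.01, all values of a library were multiples of a single step, which gave back whole reads. The deposited factors lay within 2.14% of edgeR's TMM factors, so a change common to most peaks would be scaled away. Peak coordinates are the deposited ones (it is not settled whether the first base is 0 or 1).

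All 8 Foxp3 libraries entered 1 fit in limma (3.58.1, R 4.3.3), on log2 values after adding 1, with the spread trended on mean value and no filter; p-values were two-sided and adjusted by Benjamini and Hochberg over 6396 peaks. Alternatives used edgeR 4.0.16 and DESeq2 1.42.0 on recovered reads, other constants, scalings and filters, and each library left out. On simulated data with 200 changed peaks, 38% of 2-fold and 94.8% of 4-fold changes were recovered, and 5.23% of calls were false. The simulated peaks had 1 mean for all 8 libraries, a spread set by mean value, and as many changes up as down. The real data differ in this, so the false share of the real calls was not measured. A peak took the name of the closest protein-coding gene (GRCm38.p6), by distance from its centre to the gene body, up to 100000 bp. Overlap meant 1 bp. Tables of BATF and IRF4 gave means of their own normalisations. Python 3.11.15, pandas 2.3.3 and scipy 1.17.1 were used.

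Named peaks were the 12 lowest and 8 highest called ones averaging at least 20 in the higher group, up to 3 per gene list by smallest p, all peaks of genes with 3 or more calls in 1 direction, and the strongest peak of 25 Treg and T cell genes. The samples, the 13 gene lists and these rules were chosen with earlier results of these data known. Input libraries were not analysed here.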

Additional observations from a re-analysis of the deposited data

How the results depend on the processing

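The counts of 250 lower and 35 higher peaks moved to 89 to 462 and 19 to 109 when single libraries were left out, where the lone library of a group is assumed to vary like the other groups. By other settings the lower count was 165 with quantile normalisation (median shift 0.06), 167 above the 25th percentile of mean value, 129 with DESeq2 and 138 at an adjusted p under 0.01. The higher count was 9, 17, 7 and 3 in these, 20 when scaled on peaks without a BATF peak (median shift -0.05) and 12 from the 4 libraries of the comparison. edgeR called 305 and 48. Of effector against central Treg peaks (958 higher, 688 lower), 1062 were lower with quantile normalisation and 441 at an adjusted p under 0.01, and leaving out single libraries gave 577 to 756 higher and 418 to 453 lower. The share of peaks on a BATF peak that fell, 5.29%, was 3.41% above the median value, and the share off BATF peaks, 2.62%, was 1.94% with either BATF table. Within 20000 bp of the gene, 1 peak of the Treg core, 5 of the effector, 1 of the AP-1 and 1 of the T helper genes fell. The causes were not tested.

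Replicate numbers are not stated to pair the libraries. Deviations of same-numbered libraries correlated between -0.09 and 0.14, highest between central and effector Treg cells, which cannot settle whether libraries shared mice or a day. With the replicate block 254 peaks were lower and 33 higher.

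Among the named peaks, those that changed sign under an alternative had no call. With single libraries left out, differences ranged from -0.15 to 0.20 for Icos at 60940990, -0.18 to 0.53 for Icos at 60977662, -0.73 to 0.50 for Il10, -0.44 to 0.88 for Ikzf4, -0.033 to 0.36 for Tcf7, -0.22 to 0.59 for Polr2a, -0.0089 to 0.76 for Satb1, -0.36 to 0.13 for Il2ra, -0.43 to 0.38 for Klrb1c at 128766509, -0.14 to 0.38 for Ets1 at 32615868 and -0.051 to 0.44 for Nt5e. Icos at 60940990 was at -0.077 when scaled on peaks without a BATF peak, Il10 at 0.0082 with edgeR, and Klrb1c at 128766509 at 0.052 with edgeR and 0.042 with DESeq2. With 2 libraries a group and few reads at weak peaks, changes near 2-fold can be missed.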

Other observations

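Outside the listed genes, named here after their values were seen, several genes lost Foxp3 at a pair of peaks. Within Gnptab, which encodes a subunit of the enzyme that tags lysosomal proteins, a peak had 3.05 and 3.86 in the knockout, against 54.6 and 55.1 in the wild type (-3.65, adjusted p = 2.46e-06). A second one had 7.11 and 12.9, against 58.6 and 63.5 (-2.55, adjusted p = 0.000161). Within the phosphatase gene Ptpn13 a pair of peaks fell by 2.94 and 2.68 on the log2 scale. Near Epas1, the gene of the hypoxia factor HIF-2alpha, they fell by 2.63 and 2.50, the first call being lost in 6 alternatives. Within Fyn, a kinase of the T cell receptor, they fell by 2.31 and 1.98, and both calls were lost without wild-type library 1 (adjusted p up to 0.0503 and 0.0838 over the alternatives). These pairs were higher in effector than in central Treg cells. Other pairs were not: of the pair of lower peaks near Nmur1 0 had a call, and of those at Emb and Tnip3 1 each was higher in effector Treg cells. Adjusted p-values are from limma.

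Single losses lay within Tox, an HMG-box factor of chronically stimulated T cells, with 18.3 and 7.72 in the knockout, against 100 and 96.9 in the wild type (-2.94, adjusted p = 2.3e-05). Near Klf6, a Krüppel-like factor, the values were 5.08 and 7.72, against 41.5 and 43.4 (-2.58, adjusted p = 0.000386). Near Malt1, a paracaspase of antigen receptor signalling, they were 11.2 and 9.01, against 43.5 and 64.3 (-2.29, adjusted p = 0.000113). Some losses were at sites with no call between effector and central Treg cells. The deeper one near Nmur1, a neuromedin receptor gene, at 5148 bp, had 7.11 and 10.3 in the knockout, against 39.4 and 50.1 in the wild type (-2.25, adjusted p = 6.64e-05), with 40.5 and 56.5 in effector and 42.6 and 32.6 in central Treg cells. Near Smad7, an inhibitor of TGF-beta signalling, the values were 27.4 and 28.3, against 64.7 and 74.3 (-1.29, adjusted p = 0.00475, and 0.0838 without wild-type library 2), with 46.9 and 60.6 in effector and 36.0 and 34.1 in central Treg cells. In all, 44 of the 250 lower peaks were not higher in effector Treg cells.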
